A study of Mus musculus with 9 samples.

Results

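The 10 genes described here form 5 pairs, each of a testis paralogue and the somatic gene for the same enzyme or carrier. The pairs were Cyct and Cycs (cytochrome c), Ldhc and Ldha (lactate dehydrogenase), Pgk2 and Pgk1 (phosphoglycerate kinase), Pdha2 and Pdha1 (the E1 alpha subunit of pyruvate dehydrogenase), and Gapdhs and Gapdh (glyceraldehyde-3-phosphate dehydrogenase). They were located in the deposited table by position, against GRCm38 gene coordinates, and not by the names printed there. The set was chosen by the Cyct values, which were higher in iPSC derived from spermatogonial stem cells (SSCiPSC) than in iPSC from fibroblasts (fiPSC). Member values of fiPSC against SSCiPSC are therefore a description, with no test, and Cyct has no test in any comparison. Of the 10 members, 5 (Cyct, Ldhc, Ldha, Pdha2 and Pdha1) had a named locus, a transcribed region assembled from the reads, among 10891 genes with a named locus and 54913 loci in all.

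RNA was sequenced from 9 libraries, 3 each of spermatogonial stem cells (SSC), SSCiPSC and fiPSC. All cells came from mice carrying Gt(ROSA)26Sortm1(rtTA*M2)Jae, which gives the doxycycline-responsive activator. They also carried Col1a1tm3(tetO-Pou5f1,-Sox2,-Klf4,-Myc)Jae/J, an allele giving inducible reprogramming factors, and the SSC had both alleles too. SSC were primary testis cells of mouse pups at passage 0, enriched by plating and by magnetic sorting with a Gfra1 antibody, and were a bulk fraction, not a pure cell type. SSCiPSC and fiPSC came from picked colonies of reprogrammed SSC and fetal fibroblasts (male fetuses). The labels give passages 10 to 11, and the study's methods give later passages for the cells sorted for SSEA1 to reduce feeder cells. The labels put these cells in mouse embryonic stem cell medium with LIF and doxycycline, whereas the study's methods describe doxycycline as withdrawn in the later passages. Neither source says which colony or how many animals gave a library, so the p-values below measure only the spread between these samples. Estimated from the steps between low values, the SSC libraries held 1.77, 4.62 and 1.38 units of 1000000 fragments, the SSCiPSC libraries 15.8, 13.7 and 15.0 units, and the fiPSC libraries 13.3, 17.6 and 15.4 units. In an SSC library 18.9% to 35.4% of the loci were listed at 0, and in an iPSC library 9.64% to 13.9%. Whether depth alone set these shares was not tested.

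Glycolysis splits glucose into pyruvate, and Gapdh and Pgk1 act in its energy-yielding lower stage. Lactate dehydrogenase then interconverts pyruvate and lactate in the cytosol, or pyruvate dehydrogenase turns pyruvate into acetyl-CoA in mitochondria, where cytochrome c carries electrons from complex III to complex IV. Male germ cells have a second copy of several of these genes. These copies are best known from spermatocytes and spermatids, when the X-linked Pgk1 and Pdha1 are silenced, and from sperm, which depend on Ldhc and Gapdhs for glycolysis in the tail. Pluripotent stem cells are known for high glycolysis.

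The partners of a pair differed in sequence along the whole coding region. Coding identity was 76.2% for Cyct and Cycs (240 of 315 aligned bases), 73.2% for Ldhc and Ldha, 79.3% for Pgk2 and Pgk1, 75.4% for Pdha2 and Pdha1, and 53.0% for Gapdhs and Gapdh when alignment gaps are counted as differences. Even in the most alike stretch of 100 bases, the length of a read, the partners differed at 16, 15, 14, 10 and 13 positions in the same order of pairs. The 3 pairs with a named testis locus are shown because their values rest on this separation. Sequences come from the GENCODE M21 transcripts on GRCm38, run 5′ to 3′ on the coding strand, and have the bases that differ between the partners in capitals. For Cyct and Cycs the first 150 coding bases are given, with 30 differences.
Cyct: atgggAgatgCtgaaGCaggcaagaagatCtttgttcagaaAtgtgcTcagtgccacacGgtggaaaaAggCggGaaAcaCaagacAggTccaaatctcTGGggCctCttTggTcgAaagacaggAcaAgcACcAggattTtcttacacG
Cycs: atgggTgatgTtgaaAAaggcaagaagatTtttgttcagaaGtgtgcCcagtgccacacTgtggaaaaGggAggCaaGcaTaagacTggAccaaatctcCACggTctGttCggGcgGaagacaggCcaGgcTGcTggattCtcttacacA
For Ldhc and Ldha the most alike stretch, coding bases 550 to 649 of each, has 15 differences.
Ldhc: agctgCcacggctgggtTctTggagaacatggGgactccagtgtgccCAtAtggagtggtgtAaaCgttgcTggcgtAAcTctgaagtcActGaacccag
Ldha: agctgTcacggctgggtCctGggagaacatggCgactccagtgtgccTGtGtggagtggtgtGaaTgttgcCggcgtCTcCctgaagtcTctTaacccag
For Pdha2 (bases 220 to 319) and Pdha1 (bases 217 to 316) the most alike stretch has 10 differences.
Pdha2: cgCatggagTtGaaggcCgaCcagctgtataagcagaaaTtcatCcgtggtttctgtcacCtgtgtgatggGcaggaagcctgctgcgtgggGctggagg
Pdha1: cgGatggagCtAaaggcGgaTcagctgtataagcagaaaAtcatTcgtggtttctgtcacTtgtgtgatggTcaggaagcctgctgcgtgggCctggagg

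The members also differed in how much of their transcript is unique in the genome's annotation. None of the 100-base windows of the mRNA of Cyct, Ldhc, Pgk2, Pdha2, Gapdhs or Pdha1 was found unchanged in a transcript of another gene. The share was 1.32% for Ldha, 24.7% for Cycs, 67.0% for Pgk1 and 78.0% for Gapdh, whose windows recurred in transcripts of 84 other genes. Cycs, Pgk1 and Gapdh, the members with the highest shares, were also the somatic members for which only parts of the gene had a locus, and whether the sharing caused that was not tested. Pgk2 and Pdha2 have 1 exon, against 11 in Pgk1 and Pdha1, and Cyct has 4. In the 300 bases around the start site in RefSeq (build GRCm38.p6, the first entry where a gene has more than 1), all 10 members matched by symbol. The CpG counts of the testis paralogues were 8 for Cyct, 9 for Ldhc and 4 each for Pgk2, Pdha2 and Gapdhs, and those of the somatic partners 32 for Cycs, 30 for Ldha, 24 for Pgk1, 21 for Pdha1 and 12 for Gapdh. The median of 27025 promoters was 7. The letters CACGTG, which read the same on both strands, were found in the Ldha promoter and in no other member's, and in 7.24% of all promoters.

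Cyct, the testis cytochrome c (chr2:76353942-76360450, minus strand), was the member whose values chose the set. Values are FPKM, fragments per kilobase of transcript and 1000000 fragments. The Cyct locus was at 5.35, 19.0 and 9.53 FPKM in SSC replicates 1, 2 and 3, at 63.3, 41.3 and 42.1 FPKM in SSCiPSC, and at 10.2, 10.8 and 12.8 FPKM in fiPSC. Every SSCiPSC library was above every SSC and fiPSC library, and the fiPSC libraries lay within the range of SSC. The means were 11.3 ± 6.97 FPKM in SSC, 48.9 ± 12.5 FPKM in SSCiPSC and 11.3 ± 1.38 FPKM in fiPSC (SD, n = 3 each). SSCiPSC had 4.33 times the mean of SSC and 4.34 times that of fiPSC, and the differences of means on the log2(FPKM + 1) scale were 2.15 for SSCiPSC minus SSC and 0.15 for fiPSC minus SSC. Depth set how well the SSC level is known. With the annotated mRNA of 655 bases, the values correspond to about 5, 44 and 7 fragments in SSC replicates 1, 2 and 3, to 285 to 498 fragments in SSCiPSC and to 68 to 98 in fiPSC. In a bulk library, fewer expressing cells and less RNA per cell cannot be told apart. Without SSC replicate 1, the library with the lowest value, the difference of fiPSC minus SSC was -0.25, so that no order of fiPSC and SSC can be given. The difference of SSCiPSC minus SSC ranged from 1.75 to 2.58, and that of fiPSC minus SSCiPSC from -2.11 to -1.80, over all alternatives tried. A p-value from an exact two-sided permutation test of 3 against 3 libraries could not go below 0.1.

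**Figure D1:**
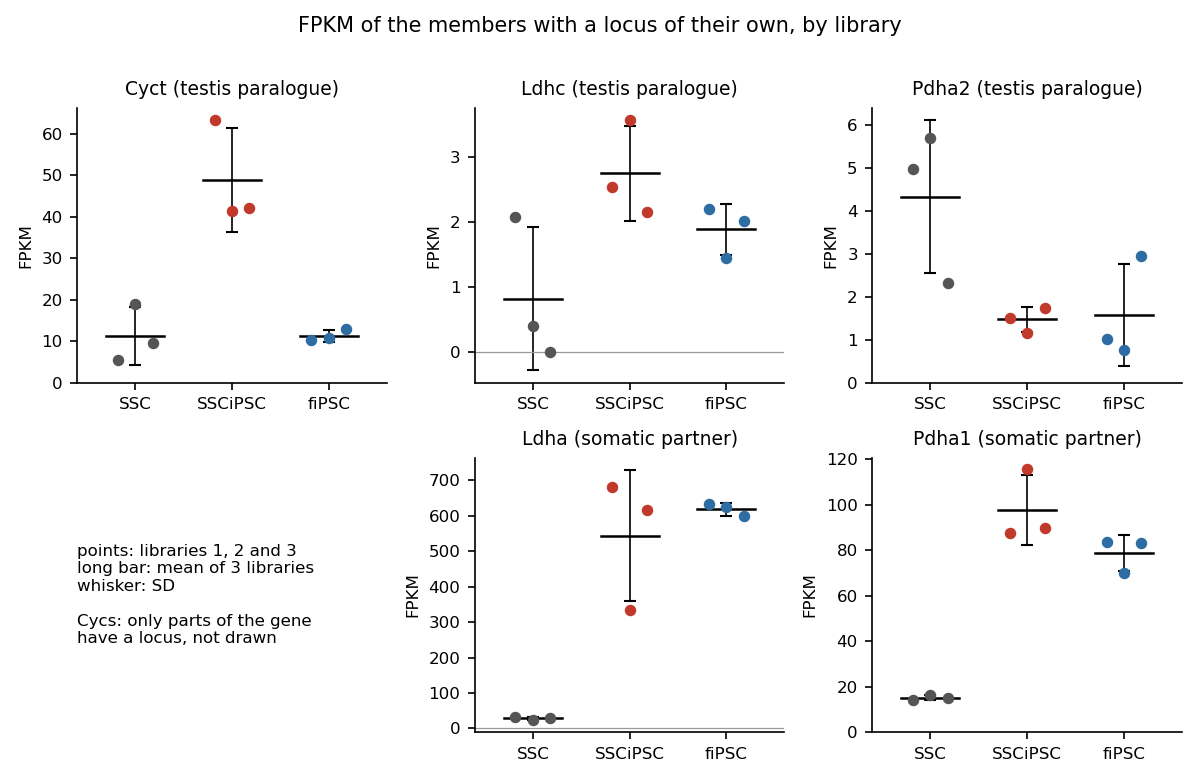
FPKM (vertical axes, linear, each panel with its own scale) of the 5 members with a named locus in the 3 groups of libraries; points are libraries, long bars means of 3 and whiskers the SD. Cyct stands at 41.3 to 63.3 FPKM in SSCiPSC and at 19.0 or less in all other libraries, whereas Ldha and Pdha1 are high in both iPSC types.

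The locus of Cyct was the sole one in the gene, and the genes near it did not share its difference. Within 500 kb, 8 other genes had a named locus. Rbm45, the nearest at 9.26 kb, was at 13.8, 16.1 and 14.4 FPKM in SSCiPSC and at 14.5, 11.7 and 15.1 FPKM in fiPSC. For Rbm45, Agps, Ttc30b, Ttc30a1, Osbpl6, Prkra, Fkbp7 and Plekha3 the libraries of the iPSC types overlapped, and the mean log2 differences of SSCiPSC minus fiPSC ran from -0.32 (Osbpl6) to 0.38 (Fkbp7), against 2.0 for Cyct. For background, the iPSC types were apart for 18.6% of the 33948 loci compared (9.41% higher and 9.23% lower in fiPSC), and 0.0678% (23 loci) passed the limma threshold (0.0236% higher and 0.0442% lower in fiPSC). Cyct was chosen in this contrast, so nothing is read from its place among them.

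**Figure D2:**
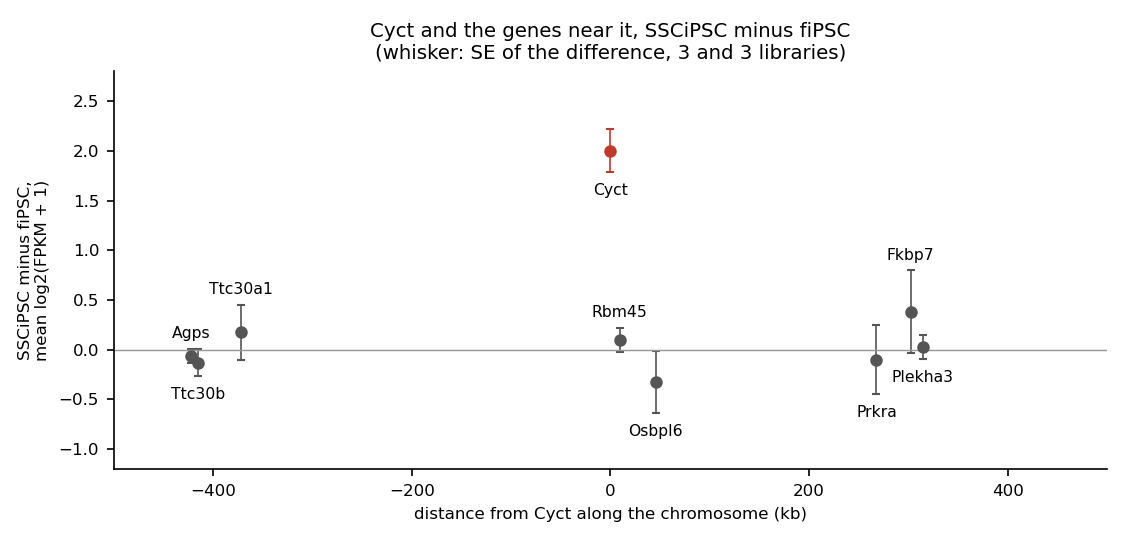
Difference of mean log2(FPKM + 1), SSCiPSC minus fiPSC (vertical axis), against the distance from Cyct along the chromosome in kb (horizontal axis) for Cyct and the 8 named genes within 500 kb; whiskers are the SE of the difference of 3 and 3 libraries. Cyct lies at 2.0 and the others lie between -0.32 and 0.38.

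The 5 genes whose pattern over the 9 libraries was most like that of Cyct, by Pearson's r of log2(FPKM + 1) among 5543 genes with a mean of at least 10 FPKM, were Acot10 (r = 0.945), Nol8 (0.938), Mrpl41 (0.936), Gtf2f1 (0.935) and Twf1 (0.925). Acot10 and Mrpl41 code for a mitochondrial acyl-CoA thioesterase and a mitochondrial ribosomal protein. Their differences were small beside that of Cyct, since Acot10 had means of 12.6 ± 1.04, 15.6 ± 0.65 and 12.1 ± 0.56 FPKM and Mrpl41 of 21.5 ± 1.74, 32.4 ± 3.53 and 24.1 ± 2.51 FPKM in SSC, SSCiPSC and fiPSC (SD, n = 3 each). The r values describe likeness of shape over libraries that fall in 3 groups, and the genes were picked as the highest of the 5543.

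Cycs, the somatic cytochrome c (chr6:50562563-50566538, minus strand), had no locus of its own strand over the whole gene, so no ratio of Cyct to Cycs could be formed. Its gene held 2 loci without strand. The 5′ part (chr6:50565983-50566518) was at 0, 3.43 and 5.75 FPKM in SSC, 1.0, 1.32 and 1.19 FPKM in SSCiPSC and 1.98, 2.38 and 1.72 FPKM in fiPSC. The 3′ part was at 0.536 FPKM or less in every library. SSC overlapped both iPSC types at each part, and these values are no level of Cycs mRNA.

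The lactate dehydrogenase pair had low values of the testis gene and a large rise of the somatic one. Ldhc, the sperm lactate dehydrogenase (chr7:46861203-46878142, plus strand), was at 2.07, 0.396 and 0 FPKM in SSC, at 2.54, 3.55 and 2.14 FPKM in SSCiPSC and at 2.19, 1.44 and 2.02 FPKM in fiPSC. The SSC values correspond to about 4, 2 and 0 fragments, against 31 to 59 in an iPSC library. Each SSCiPSC library was above the SSC libraries, but the log2 fold change of 1.19 (SE 0.44) missed the threshold (adjusted p = 0.0644 in limma). In fiPSC, which overlapped SSC, it was 0.82 (SE 0.43, adjusted p = 0.158 in limma). SSC replicate 1 held most of the SSC signal. Without it the locus met the filter on low values through the iPSC libraries alone, and nothing is read from its passing values there (limma adjusted p = 0.00912 in SSCiPSC and 0.0108 in fiPSC). A further locus at the 3′ end of the gene (chr7:46876499-46878015) had 0, 1.77 and 8.91 FPKM in SSC, so the order of the SSC libraries there was the opposite, and with both loci summed the log2 change was 0.08 in SSCiPSC and 0.01 in fiPSC. Over the alternatives the adjusted p of limma for SSCiPSC ran from 0.00912 to 0.912, with a call in 4 of 14.

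Ldha, the somatic lactate dehydrogenase and the direct neighbour of Ldhc (chr7:46841475-46855627, plus strand), was at 31.3, 23.9 and 28.8 FPKM in SSC, at 681, 334 and 617 FPKM in SSCiPSC and at 633, 624 and 598 FPKM in fiPSC. All iPSC libraries were far above all SSC libraries, and SSCiPSC replicate 2 was the lowest of the iPSC. Ldha rose 19.4-fold from SSC to SSCiPSC (log2 fold change 4.17, SE 0.29, limma adjusted p = 1.47e-04) and 22.1-fold from SSC to fiPSC (log2 fold change 4.42, SE 0.12, limma adjusted p = 1.38e-05). Its 2 comparisons share the SSC libraries. A locus also lay over Gm5452, an annotated partial copy of Ldha on chromosome 13, at 9.62, 3.15 and 5.27 FPKM in SSC, 69.3, 31.1 and 58.0 FPKM in SSCiPSC and 64.4, 66.5 and 63.4 FPKM in fiPSC. That locus had the same low library among the iPSC as Ldha, and reads of the 2 genes may be shared there. In FPKM, a value per length, Ldhc amounted to 6.61%, 1.65% and 0% of Ldha in SSC, to 0.373%, 1.06% and 0.347% in SSCiPSC and to 0.346%, 0.231% and 0.337% in fiPSC. The SSC libraries thus spanned the iPSC range, and in the iPSC the somatic gene was the main one by far.

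The pyruvate dehydrogenase pair moved in opposite directions between SSC and SSCiPSC. Pdha2, the intronless testis E1 alpha (chr3:141210004-141212355, minus strand), had a locus without strand at 4.97, 5.71 and 2.31 FPKM in SSC, 1.52, 1.16 and 1.74 FPKM in SSCiPSC and 1.02, 0.770 and 2.95 FPKM in fiPSC. These values are whole numbers of fragments, 11, 33 and 4 in SSC, 30, 20 and 33 in SSCiPSC and 17, 17 and 57 in fiPSC. All SSC libraries were above all SSCiPSC libraries, whereas fiPSC replicate 3 was above SSC replicate 3. Pdha2 fell by 1.05 on the log2 scale in SSCiPSC (SE 0.34, limma adjusted p = 0.0408), and in fiPSC the log2 change of -1.08 (SE 0.43) did not pass (limma adjusted p = 0.0805). The call in SSCiPSC was kept in 5 of 14 alternatives, with a limma adjusted p from 0.00962 to 0.132. It was lost without SSC replicate 1, SSC replicate 2 or any 1 SSCiPSC library, under quantile normalization or median-ratio scaling, without the filter, and with the replicate number as a block, and in these the log2 change lay between -1.13 and -0.85. In fiPSC the change passed without SSC replicate 3 or fiPSC replicate 3 and with all 9 libraries in the fit, with a limma adjusted p from 0.0364 to 0.233 over the alternatives.

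Pdha1, its X-linked somatic partner (chrX:160122209-160138413, minus strand), was at 14.2, 16.4 and 15.3 FPKM in SSC, at 87.6, 116 and 89.9 FPKM in SSCiPSC and at 83.7, 69.8 and 83.0 FPKM in fiPSC. No iPSC library overlapped SSC. Pdha1 rose 6.39-fold in SSCiPSC (log2 fold change 2.59, SE 0.15, limma adjusted p = 1.05e-04) and 5.16-fold in fiPSC (log2 fold change 2.29, SE 0.12, limma adjusted p = 7.08e-05) against SSC. Its locus shared an interval of 149747 bp with a plus-strand locus, on the strand of Map3k15, that moved the other way, from 15.7 ± 2.41 FPKM in SSC to 1.48 ± 0.22 FPKM in SSCiPSC and to 1.92 ± 0.54 FPKM in fiPSC (n = 3, SD). Pdha1 was the coding gene on the minus strand of that interval. Pdha2 amounted to 35.0%, 34.9% and 15.1% of Pdha1 in SSC, 1.73%, 1.0% and 1.93% in SSCiPSC and 1.22%, 1.10% and 3.56% in fiPSC. Each SSC ratio was above each iPSC ratio, and Pdha1 was the higher of the 2 in every library.

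**Figure D3:**
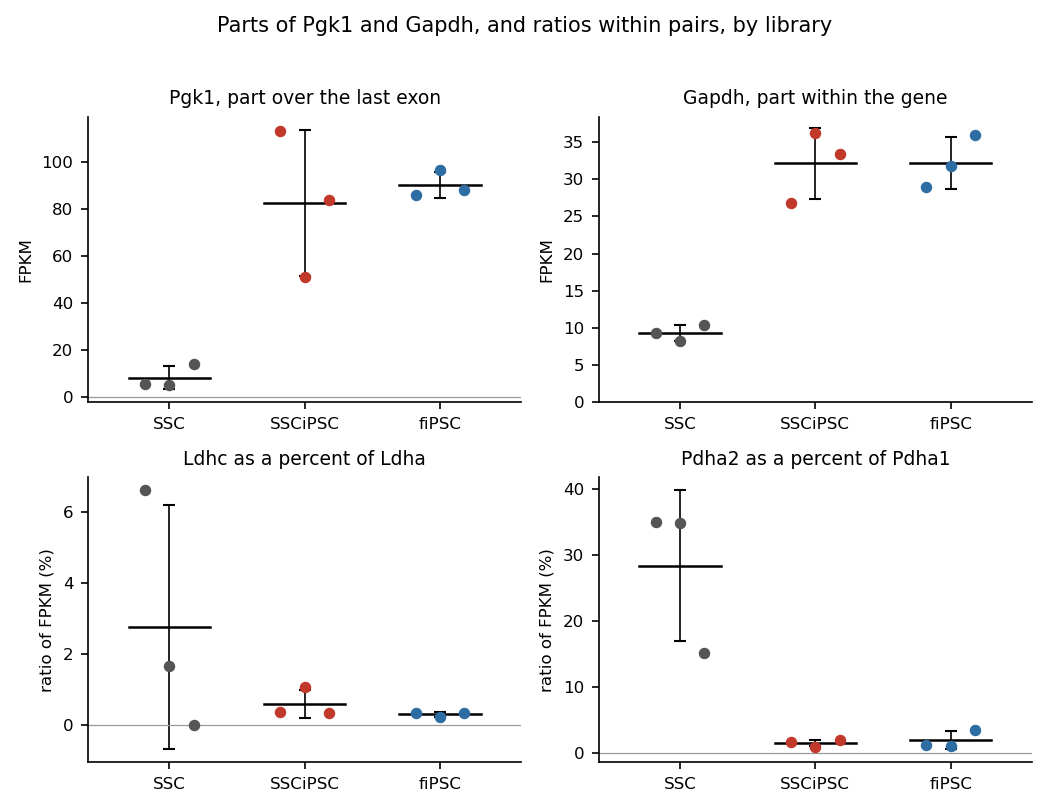
Above, FPKM of the Pgk1 part over the last exon and of the main Gapdh part by library; below, Ldhc as a percent of Ldha and Pdha2 as a percent of Pdha1. Points are libraries, long bars means of 3 and whiskers the SD; Pdha2 to Pdha1 is 15.1% to 35.0% in SSC and 3.56% or less in the iPSC.

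Of the 4 tested members with a named locus, Ldha and Pdha1 passed the threshold upward and Pdha2 downward in SSCiPSC against SSC, and Ldha and Pdha1 upward in fiPSC against SSC. All 5 named members had passed the filter on low values, a minimum of 1 FPKM in 3 or more of the 6 libraries. For background, 50.3% of the 36544 loci tested passed in SSCiPSC against SSC (26.2% higher and 24.1% lower), and 51.8% of 38007 in fiPSC against SSC (28% higher and 23.7% lower). In SSCiPSC against SSC the libraries of the groups were apart for each of the 4 (Ldhc, Ldha and Pdha1 higher, Pdha2 lower), and for 59.8% of all loci (31.1% higher and 28.7% lower). In fiPSC against SSC they were apart for Ldha and Pdha1, and for 61.6% of all loci (33.1% higher and 28.5% lower). At these shares a count over 4 genes says little, and the median log2 change of all loci tested was 0.11 and 0.17. Between the iPSC types Ldhc, Ldha and Pdha2 overlapped, and Pdha1 was lower in each fiPSC library than in each SSCiPSC library, by 0.30 on the log2 scale. The iPSC types were apart for 18.6% of all loci compared (9.41% higher and 9.23% lower in fiPSC), so little is read from 1 of 4 genes.

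For the other members a full level was not available. Pgk1, the X-linked kinase that makes ATP in glycolysis (chrX:106187100-106203699, plus strand), was covered by 13 loci that each hold a part of it. The part over the last exon (chrX:106202501-106203689) had the highest mean over the 9 libraries, at 5.43, 5.19 and 13.9 FPKM in SSC, 113, 50.9 and 83.7 FPKM in SSCiPSC and 86.0, 96.5 and 88.3 FPKM in fiPSC. No iPSC library overlapped SSC, and SSCiPSC replicate 2 was again the lowest of the iPSC. This part rose by 3.24 on the log2 scale in SSCiPSC (SE 0.43, limma adjusted p = 0.00126) and by 3.44 in fiPSC (SE 0.35, limma adjusted p = 4.56e-04). It was not the highest part in SSC, where a short part without strand (chrX:106202017-106202177) was at 0, 11.3 and 36.9 FPKM. Of the 13 loci 7 were tested and did not pass in SSCiPSC, and 6 in fiPSC. Some of those that passed were at 0 in all SSC libraries with few fragments in the iPSC, so no count of rises is given. The other plus-strand part changed by 0.49 in SSCiPSC and 0.89 in fiPSC on the log2 scale, neither past the threshold, so that the rise is a value of parts of the gene. Pgk2, its intronless testis copy (chr17:40207015-40208640, minus strand), was overlapped by 0 loci and is not analysed here.

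Gapdh (chr6:125161715-125166467, minus strand) was likewise seen only in parts, none assigned to a strand. The most abundant part (chr6:125163643-125165331) was at 9.24, 8.20 and 10.4 FPKM in SSC, 26.9, 36.2 and 33.5 FPKM in SSCiPSC and 29.0, 31.8 and 35.9 FPKM in fiPSC. SSC lay below both iPSC types, and the part rose by 1.69 on the log2 scale in SSCiPSC (SE 0.18, limma adjusted p = 5.28e-04) and in fiPSC (SE 0.14, limma adjusted p = 2.63e-04). With 97 annotated copies sharing sequence with Gapdh, this is a value of that region and no level of the gene. Of the 4 loci that touch Gapdh 3 were tested, and 2 passed upward in each comparison. Over all loci 26.2% were called higher in SSCiPSC and 28% in fiPSC. Besides the most abundant part, the locus that passed (chr6:125160861-125161770) had only 6.15% of its length inside the gene. The third (chr6:125165429-125166147), which lay inside it, did not pass. It changed by 0.61 on the log2 scale in SSCiPSC (limma adjusted p = 0.203) and by 0.86 in fiPSC (limma adjusted p = 0.0909). Gapdhs, the sperm enzyme (chr7:30729775-30743681, minus strand), had no locus on its own strand. The 4 loci over it filled a wider interval (chr7:30729594-30756131), 1 of them on the plus strand with 8.45 ± 1.42 FPKM in SSC, 3.50 ± 1.23 FPKM in SSCiPSC and 4.45 ± 0.96 FPKM in fiPSC (n = 3, SD), and no value could be assigned to Gapdhs.

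The rest of glycolysis was described with lists of pathway genes. In upper glycolysis, where glucose is phosphorylated and split, 5 of 6 tested genes rose in SSCiPSC and 6 of 6 in fiPSC against SSC, of 11 on the list and 7 with a locus. The shares of all loci called higher were 26.2% in SSCiPSC and 28% in fiPSC. Among loci with a mean of at least 5 FPKM, 6078 of 17141 were called higher in SSCiPSC and 6151 of 17246 in fiPSC. Aldoc, an aldolase named after its value was seen, was past the threshold in fiPSC by little (limma adjusted p = 0.049), and its call was lost in 10 of 15 alternatives, with 5 of the 6 left. The median log2 change was 2.33 and 2.29, beside 0.11 and 0.17 over all loci. Phosphofructokinases, which catalyse the committed step, led the list. Pfkp was at 9.06, 8.67 and 8.60 FPKM in SSC, at 261, 161 and 241 FPKM in SSCiPSC and at 207, 234 and 238 FPKM in fiPSC (log2 fold changes 4.47 and 4.54). Pfkl rose by 4.15 and 4.45 and the aldolase Aldoa by 3.06 and 3.22 on the log2 scale in SSCiPSC and fiPSC. Aldoa reached 1101 to 1920 FPKM in the iPSC.

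Lower glycolysis and the further lactate dehydrogenases held genes that rose and genes that did not pass the threshold. Of 12 genes, 9 had a locus and 7 were tested, of which 3 rose and 1 fell in SSCiPSC and 3 rose in fiPSC. Beside these, 26.2% of all loci were higher and 24.1% lower in SSCiPSC, and 28% and 23.7% in fiPSC, so counts over 7 genes say little. The enolase Eno1 rose by 2.28 and 2.47, the heart-type lactate dehydrogenase Ldhb by 1.65 and 1.69, and the phosphoglycerate mutase Pgam1 by 1.65 and 1.93 on the log2 scale in SSCiPSC and fiPSC. Under quantile normalization only 2 genes of the list passed upward in SSCiPSC. The median log2 change of the list was -0.18 in SSCiPSC, where 3 genes passed the threshold upward and 1 downward, and 0.06 in fiPSC. The gene counted as lower was Ldhd, a D-lactate dehydrogenase named after its value was seen. At 0.295 to 0.730 FPKM in SSCiPSC it met the filter through the SSC libraries alone, its call was lost with any 1 of the 6 libraries left out, and nothing is read from it.

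Transport of lactate and pyruvate followed with 3 genes higher and 1 lower among 4 tested in each comparison, of 8 on the list and 5 with a locus. The shares of all loci were 26.2% higher and 24.1% lower in SSCiPSC, and 28% and 23.7% in fiPSC. Under quantile normalization 2 genes of the list were higher in SSCiPSC. The lactate exporter Slc16a3 was at 2.39, 4.46 and 5.08 FPKM in SSC, 60.5, 29.8 and 54.3 FPKM in SSCiPSC and 70.4, 66.3 and 67.5 FPKM in fiPSC. The groups were far apart, with log2 fold changes of 3.29 and 3.84. The monocarboxylate carrier Slc16a1 rose by 2.09 and 1.77. Mpc2, a subunit of the carrier that takes pyruvate into mitochondria, fell by 2.19 and 2.37 on the log2 scale, from 40.2, 43.0 and 35.2 FPKM in SSC to 6.71 to 10.2 FPKM in SSCiPSC and 5.68 to 7.77 FPKM in fiPSC. The median log2 change of the list was 1.74 and 1.61.

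Around Pdha1, the other pyruvate dehydrogenase genes were mixed. All 11 had a locus and were tested, and 4 rose and 2 fell in each comparison. Of all loci, 26.2% were higher and 24.1% lower in SSCiPSC, and 28% and 23.7% in fiPSC. At these shares the counts over 11 genes say little. The medians were 0.08 in SSCiPSC and 0.29 in fiPSC. The E1 beta subunit Pdhb rose by 1.27 and 1.07, and Pdk1, the kinase that inhibits the complex, rose by 2.20 in both. Pdp1, the phosphatase that activates the complex, fell by 2.90 and 2.97 on the log2 scale, from 33.9 ± 2.82 FPKM (SD, n = 3) in SSC to 3.45 to 3.87 FPKM in SSCiPSC and 2.93 to 3.92 FPKM in fiPSC. The counts changed with the setting. In SSCiPSC against SSC, 2 genes rose and 2 fell under quantile normalization, 5 rose under median-ratio scaling, and 1 fell with the replicate number as a block, under median-ratio scaling or without SSC replicate 1, SSC replicate 2 or SSCiPSC replicate 2. In fiPSC against SSC, 2 rose and 3 fell under quantile normalization, which turns the balance, 5 rose under median-ratio scaling, and 1 fell under median-ratio scaling or without SSC replicate 1, SSC replicate 2, fiPSC replicate 1 or fiPSC replicate 3.

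The genes that work next to cytochrome c, in complexes III and IV and in the apoptosome, rose together. Of 13 genes, 10 had a locus, and 10 of 10 rose in each comparison, with median log2 changes of 1.31 and 1.21. Of all loci, 26.2% were higher in SSCiPSC and 28% in fiPSC. With a minimum mean of 5 FPKM, 6078 of 17141 loci were higher in SSCiPSC and 6151 of 17246 in fiPSC. Cox5a of complex IV rose by 1.93 and 1.61 and Uqcrc1 of complex III by 1.72 and 1.60 on the log2 scale. Under quantile normalization 7 rose in each comparison, and Cox4i1 (log2 change -0.38 in SSCiPSC) and Cox6a1 (-0.48 in SSCiPSC and -0.40 in fiPSC) turned to a fall past the threshold, both named after their values were seen. Between the iPSC types, 0 of 50 tested genes of the 7 pathway lists passed in limma, beside 0.0678% of all loci, and 4 (Hk2, Pdhx, Slc16a1 and Cox5a, named after their values were seen) had an unadjusted p under 0.05, as did 11.7% of all loci. The libraries of fiPSC and SSCiPSC were apart for 10 of the 50 (4 higher and 6 lower in fiPSC), or 20%, beside 18.6% of all loci. None of these counts stands out from the background.

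**Figure D4:**
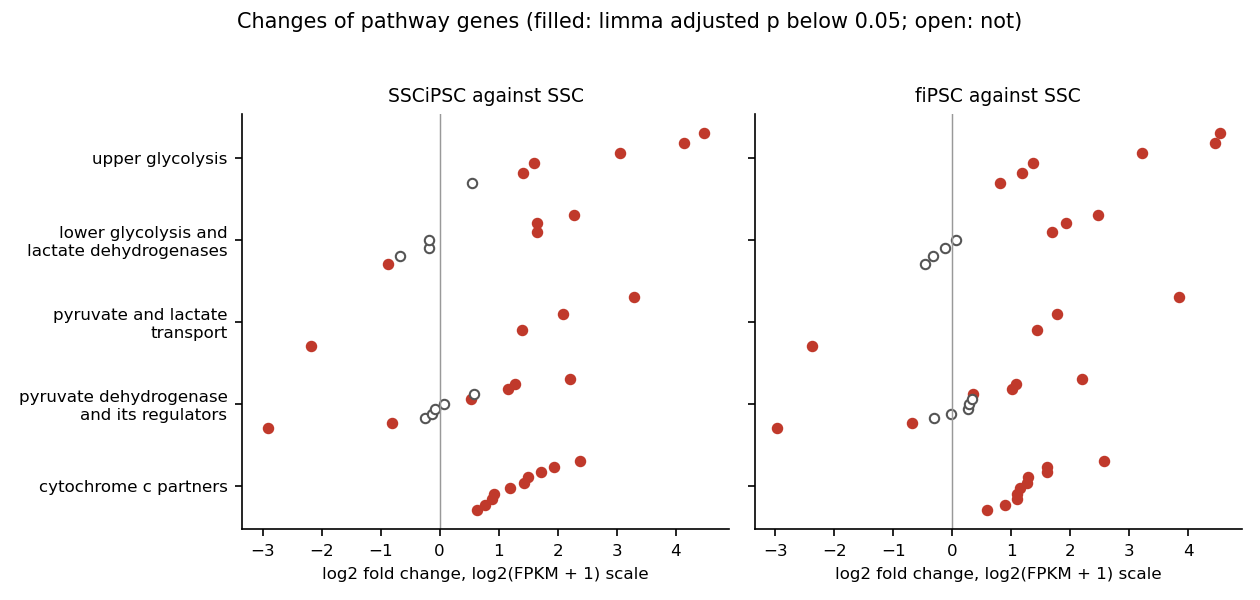
Log2 fold changes on the log2(FPKM + 1) scale (horizontal axes) of the tested genes of 5 pathway lists in SSCiPSC against SSC and in fiPSC against SSC; each point is a gene, filled where the limma adjusted p was below 0.05. Upper glycolysis and the cytochrome c partners lie to the right of 0, and Mpc2 (-2.19 and -2.37) and Pdp1 (-2.90 and -2.97) lie farthest to the left.

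Further testis paralogues, of other energy and stress genes, moved in both directions. Of 13 genes on the list 5 had a locus, and 1 rose, 3 fell and 1 did not pass in each comparison, with medians of -1.67 and -1.64. Over all loci 26.2% were higher and 24.1% lower in SSCiPSC, and 28% and 23.7% in fiPSC. Slc25a31, the germ cell ADP/ATP carrier, was at 47.2, 69.0 and 41.3 FPKM in SSC, 2.27, 2.57 and 2.46 FPKM in SSCiPSC and 2.22, 1.57 and 4.21 FPKM in fiPSC. It fell by 3.93 on the log2 scale in SSCiPSC (SE 0.23) and by 3.90 in fiPSC. Cox7b2, a testis subunit of complex IV, was at 28.4, 45.3 and 17.1 FPKM in SSC and at 2.74 to 6.82 FPKM in SSCiPSC, and fell by 2.36. In fiPSC its values of 7.92, 3.97 and 17.4 FPKM overlapped SSC, with a fall of 1.64 that was past the threshold (limma adjusted p = 0.0471) and not past it without SSC replicate 1, SSC replicate 2, fiPSC replicate 1 or fiPSC replicate 2, nor with a pseudocount of 0.1, no filter, median-ratio scaling, eBayes without a trend or the replicate number as a block. Hspa2, a testis heat shock protein, fell by 1.67 and 1.68, from 12.5 to 15.7 FPKM in SSC to 4.40 FPKM or less in the iPSC. Cox6b2, another testis subunit of complex IV, moved upward, from 0, 3.13 and 6.18 FPKM in SSC to 46.9, 39.3 and 49.8 FPKM in SSCiPSC and 41.7, 49.3 and 36.8 FPKM in fiPSC (log2 fold changes 3.90 and 3.81, limma adjusted p = 0.00384 and 0.0048). The transketolase paralogue Tktl2 overlapped between all groups, at 1.90 to 6.10 FPKM in SSC.

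**Figure D5:**
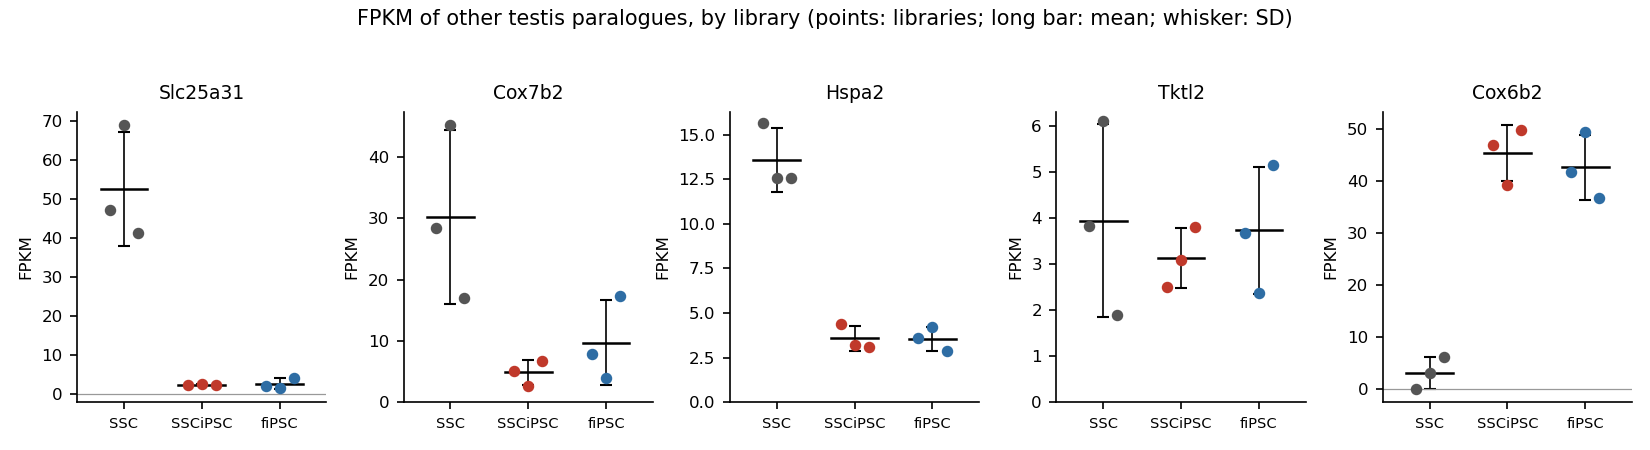
FPKM (vertical axes, linear, each panel with its own scale) of 5 further testis paralogues in the 3 groups; points are libraries, long bars means of 3 and whiskers the SD. Slc25a31 and Hspa2 are highest in SSC, Cox7b2 has its highest mean there but overlaps with fiPSC, Tktl2 overlaps between all groups, and Cox6b2 is at 36.8 FPKM or more in the iPSC and at 6.18 FPKM or less in SSC.

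Their somatic partners rose as Ldha and Pdha1 did. Of 10 genes, 8 had a locus, and 8 of 8 rose in each comparison, with medians of 2.27 and 2.02. Over all loci 26.2% were higher in SSCiPSC and 28% in fiPSC. At a mean of 5 FPKM or more, 6078 of 17141 loci were higher in SSCiPSC and 6151 of 17246 in fiPSC. The transketolase Tkt went from 25.2, 22.0 and 24.7 FPKM in SSC to 343, 276 and 280 FPKM in SSCiPSC and 271, 325 and 270 FPKM in fiPSC. Txn1, the cytosolic thioredoxin, rose by 2.45 and 2.33, and Slc25a5, a somatic ADP/ATP carrier, by 2.37 and 2.41 on the log2 scale. Under quantile normalization 5 of the 8 rose and Cox6b1, named after its value was seen, fell (log2 change -0.47 in SSCiPSC and -0.46 in fiPSC).

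The labelled cell types were checked against their markers. The 12 spermatogonial genes summed to 713, 864 and 592 FPKM in SSC, to 278 to 428 FPKM in SSCiPSC and to 256 to 308 FPKM in fiPSC, with Dazl the most abundant at 174 to 263 FPKM in SSC. Of the 12, 4 (Gfra1, Ret, Zbtb16 and Lhx1) were under 1 FPKM in every iPSC library and met the filter through SSC alone, so that their tests say little. Of the other 8, 6 fell and 2 rose in each comparison with SSC. Over all loci 24.1% were lower and 26.2% higher in SSCiPSC, and 23.7% and 28% in fiPSC. The 2 of these 8 that rose, Sall4 and Etv5, were named after their values were seen and held much of the iPSC sums. The call of Sall4 was lost under quantile normalization in both comparisons, without SSC replicate 2, SSC replicate 3, SSCiPSC replicate 2 or SSCiPSC replicate 3 in SSCiPSC, and without fiPSC replicate 3 in fiPSC. Sall4 was at 25.9 to 45.9 FPKM in SSC, 59.1 to 151 FPKM in SSCiPSC and a mean of 78.5 ± 16.9 FPKM (SD, n = 3) in fiPSC. Etv5 was at 28.9 to 38.8 FPKM in SSC, 103 to 143 FPKM in SSCiPSC and a mean of 104 ± 12.7 FPKM (SD, n = 3) in fiPSC. Gfra1, the sorting marker, was at 37.7, 34.1 and 23.9 FPKM in SSC and at 0.171 FPKM or less in the iPSC. The SSC fraction also held genes of other testis cells. The Sertoli cell list (7 of 10 genes with a locus) summed to 1198, 1221 and 976 FPKM in SSC and to 14.7 FPKM or less in any iPSC library, with Clu at 538 to 713 FPKM in SSC. The Leydig cell list (3 of 7) summed to 160, 124 and 236 FPKM in SSC, led by Cyp11a1, and the peritubular myoid list (4 of 5) to 85.8, 76.9 and 70.2 FPKM, led by Acta2. Fibroblast genes (7 of 7, led by Col3a1) summed to 90.5, 83.4 and 263 FPKM in SSC. Members of the myoid and fibroblast lists were mixed. Cnn1 and Lum overlapped between SSC and both iPSC types. Des had means of 3.15, 5.83 and 6.10 FPKM and Thy1 of 0.867, 3.09 and 3.90 FPKM in SSC, SSCiPSC and fiPSC. Changes of Cnn1, Lum, Des and Thy1, named after their values were seen, did not pass in either comparison with SSC. Macrophage genes (4 of 5, led by C1qa) summed to 32.0, 11.1 and 99.1 FPKM in SSC and, mostly through Cd68, to 8.34 to 14.1 FPKM in the iPSC, which overlapped SSC. Endothelial genes (4 of 4, led by Pecam1) summed to 106, 53.1 and 89.3 FPKM in SSC and to 83.4 to 127 FPKM in the iPSC, where Pecam1 rose except under quantile normalization, in which its change did not pass. The endothelial cadherin Cdh5 was at 12.6 to 27.2 FPKM in SSC and at 0.0458 FPKM or less in the iPSC. Cd68 and Cdh5 were named after their values were seen. What these cells added to the SSC values of the members was not tested. In the iPSC the fibroblast genes summed to 9.93 to 39.6 FPKM, against 18.5 to 39.6 FPKM in SSCiPSC alone, so that both iPSC types carried some.

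The stages in which the testis paralogues are best known could be followed only in part. Of the 10 spermatid genes, which include the protamines Prm1 and Prm2, 0 had a locus named for them. A gene without a named locus can still have reads, as the parts of Pgk1 and Gapdh had. Whether spermatid transcripts were present is thus not known from this count. Of 10 meiotic genes 7 had a locus, and they summed to 125, 166 and 126 FPKM in SSC, 94.2, 74.2 and 83.2 FPKM in SSCiPSC and 69.3, 76.0 and 89.5 FPKM in fiPSC, with Sycp2 the most abundant in SSC at 40.1 to 51.1 FPKM. Sycp2 was at 1.59 FPKM or less in the iPSC. The sums were lower in every iPSC library than in every SSC library, but the genes were mixed. Of 6 tested, 1 rose, 2 fell and 3 did not pass in SSCiPSC, and 2 rose, 3 fell and 1 did not pass in fiPSC. The rises were 2 in SSCiPSC without SSC replicate 2 or SSC replicate 3, and 1 in fiPSC without SSC replicate 1 or any 1 fiPSC library. Median-ratio scaling also gave 2 rises in SSCiPSC, and quantile normalization gave 3 falls there. Over all loci 26.2% were higher and 24.1% lower in SSCiPSC, and 28% and 23.7% in fiPSC, so these counts over 6 genes say little. Hormad1, named after its value was seen, rose from a mean of 8.09 FPKM in SSC to 28.8 FPKM in SSCiPSC and 23.1 FPKM in fiPSC. The pluripotency list (8 of 9 genes with a locus) summed to 58.4 to 66.4 FPKM in SSC, to 2081 to 2312 FPKM in SSCiPSC and to 1769 to 1931 FPKM in fiPSC, led by Pou5f1 at 579 to 877 FPKM in the iPSC, a gene that the inducible allele also encodes.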

How the data were processed

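The authors sequenced paired reads of RNA libraries (the labels name ribosomal RNA depletion and a stranded mRNA kit) and deposited FPKM values, 1 per assembled locus and library, made with TopHat and Cufflinks. The submitters' processing notes also list Trimmomatic 0.32, TopHat2 2.0.9, Bowtie2 2.1.0, Cufflinks 2.2.1, Cuffdiff and mm9. The coordinates were read as GRCm38, since 92.8% of the 16363 stranded loci overlapped a coding gene of their strand there, against 38.3% and 37.9% when moved by 1000000 bp. The strand was inferred from the order of the table, which has plus-strand loci (8278), minus-strand loci (8085) and loci without strand (38550) in turn. Of 54914 loci, 1 was dropped for a blank value, and 23605 shared an interval with another locus.

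A locus was named for a protein-coding gene of GENCODE M21 by overlap and strand, and the locus with the highest mean was used. A list gene counted as having a locus only where a locus was named for it. Groups of 3 were compared in pairs with limma 3.58.1 (R 4.3.3; lmFit, eBayes with a trend) on log2(FPKM + 1), over loci that reached 1 FPKM in 3 or more of 6 libraries, with Benjamini-Hochberg adjustment over all loci and a threshold of 0.05. A count test was not used, and folds on this scale understate changes of low values. Fragments per library came from the steps of low values at 12016 loci of 600 to 6000 bp without strand that share no interval, where all values of up to 10 fragments (100%) were within 0.05 of a whole number. Values of shorter loci need not be whole on this scale. Counting error alone makes low SSC values imprecise. The fit was tested on simulated data. Python 3.11.15, numpy 2.4.6, pandas 2.3.3, scipy 1.17.1, Biopython 1.88 and matplotlib 3.10.9 were also used.

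The members and gene lists were chosen with earlier results of these data known. The genes named are the members, up to 3 of each pathway list past the threshold in SSCiPSC against SSC with a group mean of at least 10 FPKM, by size of change, further testis paralogues with a locus, the 5 genes most like Cyct, its named neighbours, and the most abundant gene of each marker list. The pathway lists cover upper and lower glycolysis, pyruvate and lactate transport, the pyruvate dehydrogenase complex, cytochrome c partners, further testis paralogues and their somatic partners. The marker lists cover spermatogonia, meiosis, spermatids, Sertoli, Leydig, peritubular myoid, macrophage, endothelial, fibroblast and pluripotent cells. Copies of pathway genes elsewhere in the genome were not searched. The values of 1 gene that this rule names are not reported here.

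Alternatives were a pseudocount of 0.1, no filter, a minimum mean of 5 FPKM, median-ratio scaling, quantile normalization, all 9 libraries in the fit, eBayes without a trend, the replicate number as a block, summed loci of a gene, and each library left out. Counts of list genes under these settings were added after seeing the data.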

Additional observations from a re-analysis of the deposited data

How the results depend on the processing

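The rise of Ldha and Pdha1 in both comparisons with SSC kept its direction and its side of the threshold in 15 of 15 alternatives, with log2 changes from 3.33 to 4.66 for Ldha and from 1.96 to 2.82 for Pdha1. The count of members past the threshold was 2 to 4 in SSCiPSC against SSC and 2 to 3 in fiPSC against SSC, and Ldhc and Pdha2 were the members whose calls changed. The Cyct difference of fiPSC minus SSC turned to -0.25 without SSC replicate 1 and ranged from -0.25 to 0.58 with single libraries left out. The cause was not tested.

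The number of loci past the threshold fell to 10070 in SSCiPSC against SSC, 10528 in fiPSC against SSC and 10 in fiPSC against SSCiPSC with a minimum mean of 5 FPKM, which leaves fewer loci to test. With 1 library left out it was 11357 to 13901, 11300 to 16585 and 2 to 10, with fewer samples in each fit. The split by direction turned with the group that lost a library, since a locus at 1 FPKM or more in the 2 remaining libraries alone cannot pass the filter. Without any 1 SSC library 4101 to 4710 loci were lower in SSCiPSC (against 8814) and 5016 to 5764 in fiPSC (against 9022), and without any 1 iPSC library 4761 to 5204 were higher in SSCiPSC (against 9582) and 4757 to 5125 in fiPSC (against 10658). In fiPSC against SSCiPSC it was 11 with all 9 libraries in the fit. Median-ratio scaling moved the median log2 change of all loci from 0.11 to 0.29 in SSCiPSC against SSC and from 0.17 to 0.35 in fiPSC against SSC, so changes near 0 depend on the scaling. Under that scaling, 11108 loci were higher and 7687 lower in SSCiPSC against SSC, against 9582 and 8814. In fiPSC against SSC they were 12348 and 7768, against 10658 and 9022. Some larger changes depended on the normalization too. In SSCiPSC against SSC, quantile normalization turned the log2 change of Cox4i1 from 0.92 to -0.38. It turned that of Cox6a1 from 0.63 to -0.48 and that of Cox6b1 from 0.78 to -0.47. The main fit applied no scaling. FPKM summed over all loci were 841963 to 868707 in an SSC library and 1106484 to 1416064 in an iPSC library. Of the 960 counts of list genes under these settings, 865 were within 1.5 times the count reported. Counts of 0 beside a reported 0 are among the 865. Several lists had a reported count of 0 in 1 direction, so the total says little of how stable the counts are.

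No pairing of libraries by replicate number was seen. The correlations of deviations were -0.24 to 0.02 over 9 pairs of the same number and -0.13 to 0.20 over 18 pairs of different number. With 3 libraries in a group and few fragments in SSC, a weak pairing could be missed. With the replicate number as a block, 16926, 17546 and 6 loci passed in the 3 comparisons, and the call of Pdha2 in SSCiPSC was lost.

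Depth limits the SSC values of low genes. Cyct rested on about 5 and 7 fragments in SSC replicates 1 and 3 and Ldhc on 4 or fewer in each SSC library. Members with parts or no locus (Cycs, Pgk1, Pgk2, Gapdh and Gapdhs) have no level for the whole gene here. Loci without strand, such as that of Pdha2, cannot be told apart from transcripts of the other strand.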

Other observations

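SSCiPSC replicate 2 stood apart from the other iPSC libraries in glycolysis genes, a pattern noticed after the values were seen. Among the 10 genes of the glycolysis lists and Ldha with a mean of 10 FPKM or more in the 6 iPSC libraries, 7 (Ldha, Ldhb, Hk1, Pfkl, Pfkp, Aldoa and Aldoc) had their lowest value in that library, and the median ratio to the mean of the other 5 was 0.666. Over all 5242 named genes with such a mean, 13.4% were lowest in that library, and the median ratio was 1.10. Of 10 cytochrome c partners 2 were lowest there, with a median ratio of 1.02, and of 8 pyruvate dehydrogenase genes 2, with a median ratio of 0.978. Outside glycolysis, 2 of 3 genes of pyruvate and lactate transport were also lowest there, with a median ratio of 0.80. Without SSCiPSC replicate 2, Ldha and Pdha1 still passed the threshold in SSCiPSC against SSC. What sets this library apart was not tested.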
